A study of Mus musculus with 6 samples.

Results

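Germline and meiotic genes are transcribed mainly in oocytes, in male germ cells and in their precursors. The 10 described here are Syce3, Syce1, Sycp3, Hormad1, Dazl, Ddx4, Mael, Asz1, Stk31 and Tex19.1, out of 28879 genes in the deposited table, and each was found there by its symbol. They were picked by name with the fragment counts and differences of these same libraries in view, so the differences of these 10 genes are given as a description, without a test. The study set vitrified–warmed mouse blastocysts, labelled Cryo, against fresh mouse blastocysts, labelled Fresh. Vitrified–warmed blastocysts had been through a commercial human vitrification kit, liquid nitrogen and warming, and then a short culture in human tubal fluid, and fresh blastocysts had not. As far as the methods state, the groups were otherwise alike: zygotes came from superovulated C57BL/6JNarl females of 6 to 8 weeks (the series' design text names B6CBF1 mice instead), and all were grown in human tubal fluid for 3 days. Per the methods, each group's embryos went into 1 pool, which was divided into aliquots that gave 1 RNA-Seq library each. The libraries numbered 3 for vitrified–warmed blastocysts and 3 for fresh blastocysts, so every SD and every p-value below measures the spread between aliquots of 1 pool, and differences among pools or embryos are not covered. In such bulk samples, fewer cells of a type and less RNA per cell cannot be told apart.

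In meiosis, the synaptonemal complex holds paired chromosomes together. Its lateral elements, built on the chromosome axis, contain SYCP3, its transverse filaments are made of SYCP1, and its central element contains SYCE1, SYCE2, SYCE3 and TEX12. HORMAD1 and HORMAD2 bind axes that are not yet paired. DAZL binds messenger RNA in germ cells, and DDX4, an RNA helicase, MAEL and ASZ1 work in the nuage, the cytoplasmic granules where piRNAs that silence transposons are made. Outside the germline, many genes of this kind are kept silent by promoter DNA methylation and by a variant Polycomb complex that contains E2F6, MGA and MAX, which bind E2F motifs and E-boxes.

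Promoter windows of all 10 genes were found in RefSeq (GRCm38.p6), each running from 250 bases before to 50 bases after an annotated transcription start. The E-box searched was CACGTG, which reads the same on either strand, and the E2F motif searched was GGCGGGA, or TCCCGCC on the other strand. Among 32851 RefSeq windows of the same length, 7.15% held the E-box, 11.3% held the E2F motif and 1.18% held both. An E-box was found for 5 of the 10 genes (Sycp3, Hormad1, Ddx4, Mael and Stk31), an E2F motif for 3 (Hormad1, Ddx4 and Mael), and neither for the other 5. A gene was counted if any of its windows held a match, and 3 of the 10 genes had 2 windows, while the shares above count single windows. No match overlapped another. Since the genes were picked with their differences in view, motif and direction were not compared. The windows of 7 genes are printed, with the motif matches in capitals, to show where the matches lie and what a window without them looks like. All are written 5′ to 3′ on the strand of the gene. Hormad1 (chr3:95559427-95559726, plus strand), Ddx4 (chr13:112652261-112652560, minus strand) and Mael (chr1:166238695-166238994, minus strand) carried both motifs.
Hormad1: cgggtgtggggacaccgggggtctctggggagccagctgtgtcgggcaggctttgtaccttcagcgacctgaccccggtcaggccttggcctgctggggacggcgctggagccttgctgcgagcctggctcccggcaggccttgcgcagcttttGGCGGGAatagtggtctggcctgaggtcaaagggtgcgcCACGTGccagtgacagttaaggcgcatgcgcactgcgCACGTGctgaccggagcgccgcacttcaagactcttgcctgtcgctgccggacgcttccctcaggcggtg
Ddx4: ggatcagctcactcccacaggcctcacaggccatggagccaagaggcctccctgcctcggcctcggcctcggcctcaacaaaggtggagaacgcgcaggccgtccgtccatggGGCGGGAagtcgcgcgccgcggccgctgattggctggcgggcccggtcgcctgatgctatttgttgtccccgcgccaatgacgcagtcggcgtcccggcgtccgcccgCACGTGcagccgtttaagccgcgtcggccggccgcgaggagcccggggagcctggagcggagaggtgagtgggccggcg
Mael: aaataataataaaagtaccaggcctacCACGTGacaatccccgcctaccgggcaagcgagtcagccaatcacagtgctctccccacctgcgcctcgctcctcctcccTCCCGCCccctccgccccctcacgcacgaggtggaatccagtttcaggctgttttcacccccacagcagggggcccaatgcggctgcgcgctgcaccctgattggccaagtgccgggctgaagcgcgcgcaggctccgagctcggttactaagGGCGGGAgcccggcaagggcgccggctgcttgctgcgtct
Sycp3 (chr10:88459337-88459636, plus strand) had 2 E-boxes, 64 and 43 bases before its start, and no E2F motif.
Sycp3: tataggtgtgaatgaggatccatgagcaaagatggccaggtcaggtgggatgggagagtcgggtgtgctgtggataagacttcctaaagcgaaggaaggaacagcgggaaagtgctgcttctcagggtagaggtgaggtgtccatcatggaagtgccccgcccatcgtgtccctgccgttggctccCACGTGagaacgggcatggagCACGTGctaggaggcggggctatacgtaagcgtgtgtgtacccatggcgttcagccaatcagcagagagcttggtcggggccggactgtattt
Dazl (chr17:50293571-50293870, minus strand) and the central element genes Syce1 (chr7:140787805-140788104, minus strand) and Syce3 (chr15:89410454-89410753, minus strand) had neither motif.
Dazl: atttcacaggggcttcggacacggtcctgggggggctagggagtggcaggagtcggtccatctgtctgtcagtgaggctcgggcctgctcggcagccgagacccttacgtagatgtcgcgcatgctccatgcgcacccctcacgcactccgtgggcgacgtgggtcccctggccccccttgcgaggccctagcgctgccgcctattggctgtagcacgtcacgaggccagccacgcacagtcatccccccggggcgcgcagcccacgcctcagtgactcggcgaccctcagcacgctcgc
Syce1: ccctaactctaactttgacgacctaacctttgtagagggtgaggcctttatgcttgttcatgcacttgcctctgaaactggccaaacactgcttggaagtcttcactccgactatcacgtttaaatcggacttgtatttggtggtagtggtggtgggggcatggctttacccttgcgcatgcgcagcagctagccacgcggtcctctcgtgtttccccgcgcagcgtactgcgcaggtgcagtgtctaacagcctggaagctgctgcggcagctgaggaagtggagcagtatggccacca
Syce3: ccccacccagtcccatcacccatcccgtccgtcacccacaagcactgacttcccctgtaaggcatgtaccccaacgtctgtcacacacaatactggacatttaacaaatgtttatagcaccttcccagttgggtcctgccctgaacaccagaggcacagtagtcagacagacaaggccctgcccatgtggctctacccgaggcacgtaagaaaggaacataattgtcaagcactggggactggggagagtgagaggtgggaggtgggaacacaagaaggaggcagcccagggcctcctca
CG dinucleotides, the sites of DNA methylation, numbered 5 in this Syce3 window and 38 in the Ddx4 window, the lowest and the highest among the 13 windows of the 10 genes, against a median of 7 over all windows. The start used for Ddx4 lies 319 bases from the gene's start in the deposited table. A match describes letters in the window and is no evidence of binding.

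**Figure D1:**
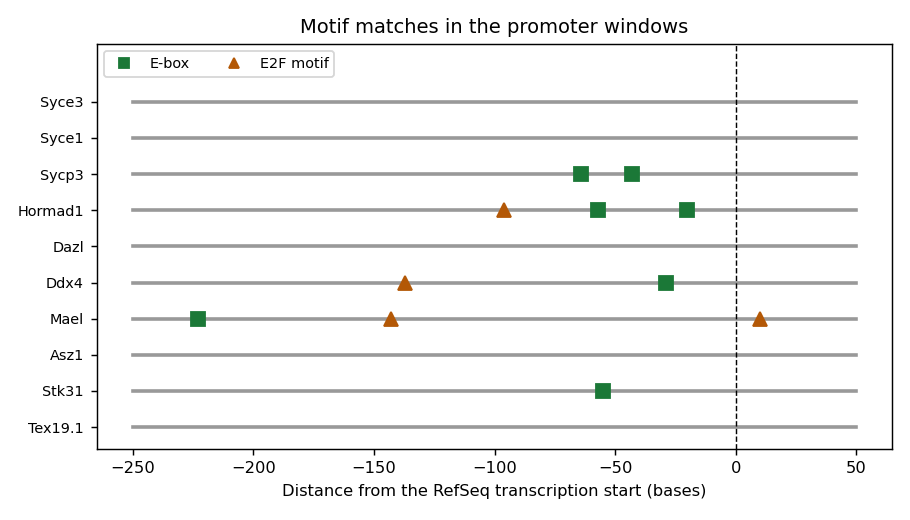
Motif matches in the first RefSeq promoter window of each of the 10 genes. The horizontal axis is the distance from the transcription start in bases (dashed line at the start), squares mark the E-box and triangles the E2F motif. Hormad1, Ddx4 and Mael have both kinds of match.

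Depth was 9093411 to 11275436 exon fragments in the vitrified–warmed libraries and 10788884 to 11843562 in the fresh libraries. Of the library total behind the authors' FPKM (fragments scaled to exon length and library total), the exon share was 54.4% to 56.6% in the vitrified–warmed and 63.2% to 63.6% in the fresh libraries. The number of genes with at least 1 fragment was 17563 to 17764 in vitrified–warmed libraries, 20086 in fresh replicate 1, and 15558 and 15991 in the other fresh libraries. The part that these differences between libraries have in the results below was not tested. Each of the blastocyst's lineages had abundant markers in all libraries, while other markers were sparse, and Sox7 and Foxa2 of the primitive endoderm did not pass the filter on low counts. Of 11 trophectoderm markers tested, 7 were higher in vitrified–warmed blastocysts and 2 lower, and the list summed to 2353 to 2391 CPM (fragments scaled to library size after TMM normalization) in the vitrified–warmed and 2021 to 2098 CPM in the fresh libraries. Of 10 epiblast markers 5 were higher and 3 lower, at 737 to 757 CPM in the vitrified–warmed and 719 to 750 CPM in the fresh libraries. Of 6 primitive endoderm markers tested 2 were higher and 1 lower. That list, which shares Dab2 with the trophectoderm list, summed to 700 to 721 CPM in the vitrified–warmed and 630 to 640 CPM in the fresh libraries. The part of these lineages in the results below was not tested. Of 12774 genes that passed the filter on low counts, 4034 (31.6%) were called higher in vitrified–warmed blastocysts and 4188 (32.8%) lower by edgeR, with a Benjamini–Hochberg adjusted p under 0.05. The groups did not overlap, with every vitrified–warmed library above every fresh one, for 33.5% of genes, and with every vitrified–warmed library below, for 35.1%.

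All 10 germline and meiotic genes passed the filter, 6 of them with enough fragments in both groups. Syce3 and Syce1 passed only through the vitrified–warmed libraries and Hormad1 and Ddx4 only through the fresh libraries. For these 4, the filter thus favored a higher level in the group that passed. Past the threshold that 31.6% of all genes crossed upward were 4 of the 10 (Syce3, Syce1, Sycp3 and Asz1), and past the one that 32.8% crossed downward were 4 (Hormad1, Dazl, Ddx4 and Mael). The same 4 and 4 had groups that did not overlap, beside 33.5% and 35.1% of all genes, while Stk31 and Tex19.1 overlapped. By the rule in the study's methods, which asks for an average over 0.5 FPKM, 1.5-fold or more and p under 0.05 without adjustment, 3 of the 10 were higher (9.17% of all genes tested) and 2 were lower (11.6%). Since the genes were chosen with this comparison known, nothing is read from these counts. The call of Sycp3 was lost without vitrified–warmed replicate 1 (log2 fold change 0.13) and without fresh replicate 1, 2 or 3 (0.12, 0.14 and 0.14), and that of Ddx4 without vitrified–warmed replicate 1 or 3 (-1.20 and -0.94) or fresh replicate 2 (-1.23).

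**Figure D2:**
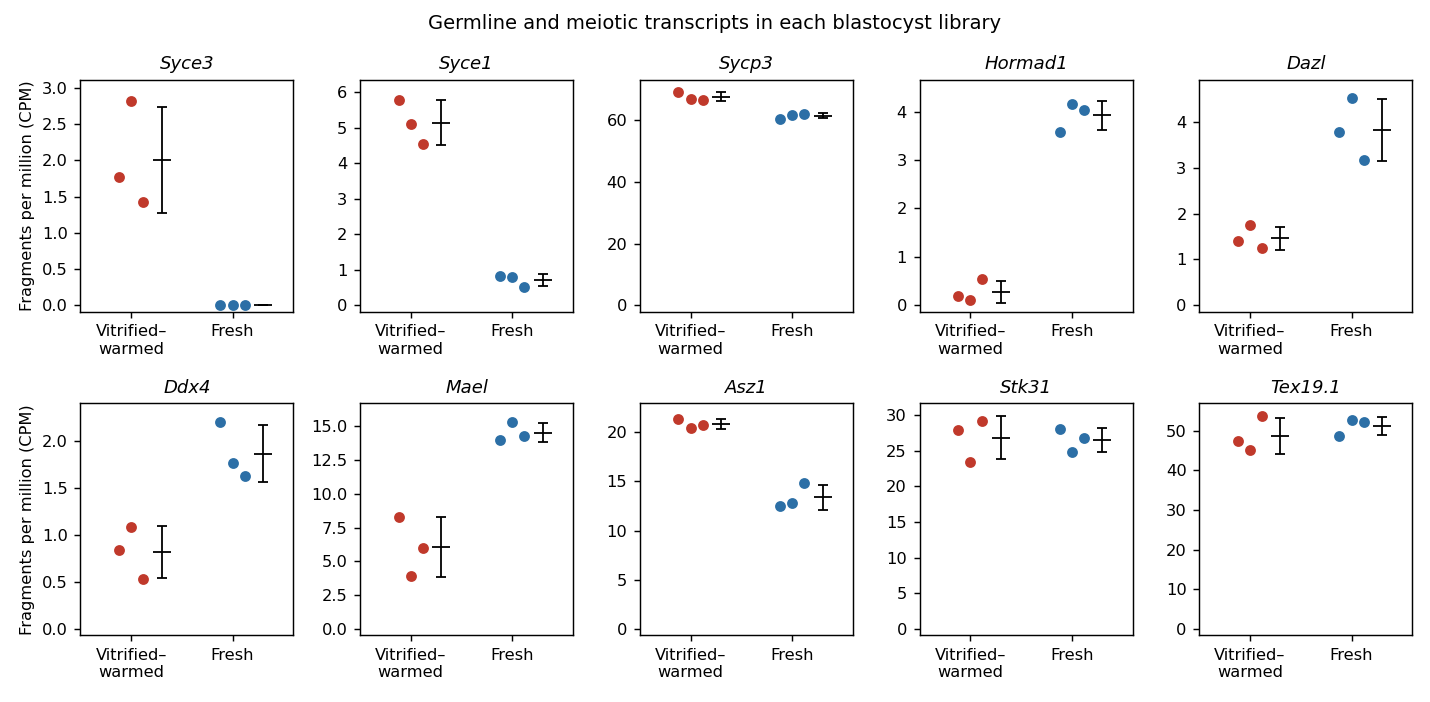
Level of each of the 10 germline and meiotic transcripts in every library, in CPM after TMM normalization (linear vertical axes), for vitrified–warmed (left) and fresh (right) blastocysts. Points are the 3 libraries of a group, and the bar beside them gives the mean and SD. Syce3 is at 0 in each fresh library, Hormad1 stands between 0.109 and 0.533 in the vitrified–warmed libraries, and Stk31 and Tex19.1 overlap between groups.

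Transcripts of the central element genes Syce3 and Syce1 were higher in vitrified–warmed blastocysts. Syce3 (chromosome 15, 89390174 to 89410503 on the minus strand of GRCm38, 4 exons) encodes a small protein needed to start synapsis. It had 19, 26 and 16 exon fragments in the vitrified–warmed libraries and none in any fresh library. This was 2.01 ± 0.731 in vitrified–warmed blastocysts (SD, n = 3), against a limit of 0.0887 CPM in fresh blastocysts, taken as 3 counts over the group. The mean of Syce3 in vitrified–warmed blastocysts was thus 22.6-fold above the fresh limit, a ratio that leaves out the error of that mean. The fresh libraries, including the one with the most genes detected, were all at 0. Such a limit covers only the counting error of the group at 0, and intervals drawn from counts cover counting error only.

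Syce1 (chromosome 7, 140777229 to 140787854, minus strand, 13 exons) encodes a partner of SYCE3 in the central element. It had 62, 47 and 51 fragments in the vitrified–warmed libraries, against 9, 9 and 6 in the fresh libraries. The groups stood far apart, at 5.14 ± 0.628 CPM in vitrified–warmed and 0.713 ± 0.173 CPM in fresh blastocysts (SD, n = 3 each). The fitted difference was a log2 fold change of 2.84 (standard error 0.32), or 7.14-fold higher. Among the vitrified–warmed libraries, the SD of Syce1 was 12.2% of its mean, beside 13.7% from counting alone, while the SD of Syce3 was 36.4% of its mean, beside 22.2% from counting alone.

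The 2 genes of the chromosome axis differed from each other. Sycp3 (chromosome 10, 88459587 to 88473236, plus strand, 9 exons), the filament protein of the lateral element, was the most abundant of the 10 transcripts per exon length. It had 741, 616 and 748 fragments in the vitrified–warmed libraries, against 657, 696 and 725 in the fresh libraries. After scaling, the 3 vitrified–warmed libraries lay just above the fresh ones, at 69.2, 66.9 and 66.5 CPM in vitrified–warmed and 60.4, 61.6 and 62.1 CPM in fresh blastocysts, a log2 fold change of 0.14 (standard error 0.05). This direction was lost on the deposited FPKM without further scaling, where Sycp3 averaged 33.6 ± 0.856 in vitrified–warmed and 34.4 ± 0.248 in fresh blastocysts (SD, n = 3 each). The region of Sycp3 overlaps, in the deposited annotation, the 3′ end of Chpt1, an enzyme gene on the opposite strand, over 424 bases, and an uncharacterized non-coding gene on the opposite strand. Whether the counting used strand is not given in the sources used here, so fragments of Sycp3 and these genes cannot be told apart there.

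Hormad1 (chromosome 3, 95559640 to 95587940, plus strand, 20 exons), whose protein marks unpaired chromosome axes, had the lowest fitted difference among the 10 genes. It had 2, 1 and 6 fragments in the vitrified–warmed libraries, against 39, 47 and 47 in the fresh libraries. The level was 0.276 ± 0.226 CPM in vitrified–warmed and 3.93 ± 0.301 CPM in fresh blastocysts (SD, n = 3 each). Every vitrified–warmed library was thus close to 0, and the fresh libraries were alike. The fitted log2 fold change was -3.72 (standard error 0.46), or 13.2-fold lower, and it was -4.59 without vitrified–warmed replicate 3, the highest of those libraries. The last 2060 bases of Hormad1 overlap an uncharacterized non-coding gene on the opposite strand, which had 2, 5 and 0 fragments in the vitrified–warmed and 11, 10 and 12 in the fresh libraries, and the use of strand in counting again sets what can be told apart.

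**Figure D3:**
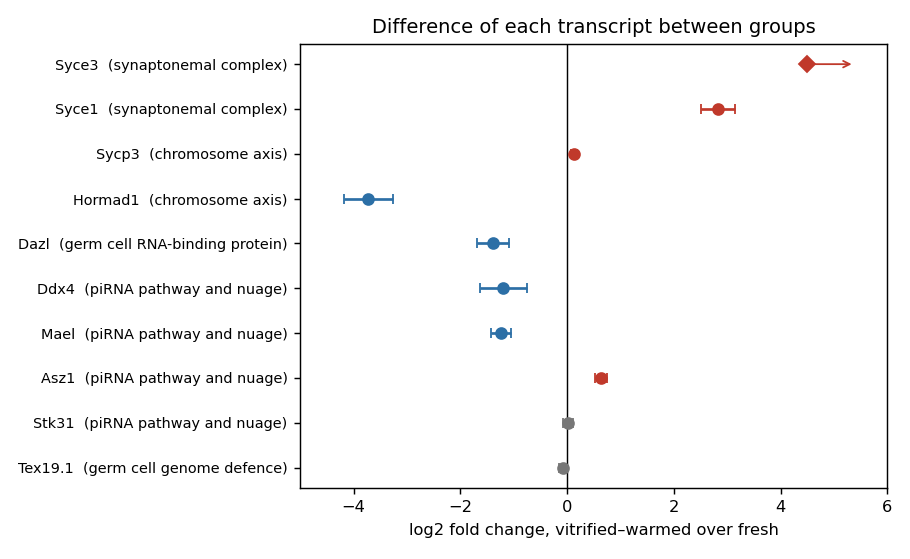
Log2 fold change of each of the 10 transcripts, vitrified–warmed over fresh, ordered by role. Points with bars are fitted values with their standard errors, red where all vitrified–warmed libraries lie above the fresh ones, blue where all lie below and grey where the groups overlap. The diamond with an arrow is the vitrified–warmed mean of Syce3 over its fresh limit, 4.50 on the log2 scale, without the error of that mean. Hormad1 is lowest at -3.72, and Stk31 and Tex19.1 stand near 0.

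Transcripts of the germ cell RNA regulators Dazl and Ddx4 were sparse in both groups and lower in vitrified–warmed blastocysts. Dazl (chromosome 17, 50279393 to 50293620, minus strand, 13 exons) encodes an RNA-binding protein needed for germ cell development. It had 15, 16 and 14 fragments in the vitrified–warmed libraries, against 41, 51 and 37 in the fresh libraries. The groups were apart, at 1.46 ± 0.253 CPM in vitrified–warmed and 3.82 ± 0.675 CPM in fresh blastocysts (SD, n = 3 each). The log2 fold change of Dazl was -1.39 (standard error 0.30). Ddx4 (chromosome 13, 112598333 to 112652629, minus strand, 28 exons), the mouse vasa gene, had 9, 10 and 6 fragments in the vitrified–warmed libraries, against 24, 20 and 19 in the fresh libraries. Its log2 fold change of -1.19 had a standard error of 0.44, and without vitrified–warmed replicate 3 it was -0.94 (standard error 0.52).

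Of the genes of the nuage, Mael was lower and Asz1 was higher in vitrified–warmed blastocysts, while Stk31 overlapped between groups. Mael (chromosome 1, 166201385 to 166238744, minus strand, 12 exons), needed for transposon silencing by piRNAs, had 89, 36 and 67 fragments in the vitrified–warmed libraries, against 152, 173 and 167 in the fresh libraries. The fresh libraries were alike, and the vitrified–warmed libraries were spread, with an SD of 36.3% of the mean CPM beside 12.5% from counting alone. The log2 fold change of Mael was -1.24 (standard error 0.19), and -1.03 without vitrified–warmed replicate 2, its lowest library.

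Asz1 (chromosome 6, 18050964 to 18109061, minus strand, 17 exons), whose protein anchors the nuage to mitochondria, had 229, 188 and 233 fragments in the vitrified–warmed libraries, against 136, 145 and 173 in the fresh libraries. This was 20.8 ± 0.482 CPM in vitrified–warmed and 13.4 ± 1.25 CPM in fresh blastocysts (SD, n = 3 each). The groups did not overlap, and the log2 fold change was 0.64 (standard error 0.11). Stk31 (chromosome 6, 49395483 to 49469506, plus strand, 30 exons), a tudor domain protein of germ cells, had 299, 216 and 328 fragments in the vitrified–warmed libraries, against 305, 280 and 312 in the fresh libraries. Its CPM ranged from 23.5 to 29.1 in vitrified–warmed and from 24.8 to 28.05 in fresh blastocysts, so the groups overlapped (log2 fold change 0.02, standard error 0.10).

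Tex19.1 (chromosome 11, 121146143 to 121148314, plus strand, 3 exons), which protects germ cells and placenta against retrotransposons, also overlapped between groups. It had 507, 414 and 604 fragments in the vitrified–warmed libraries, against 529, 596 and 608 in the fresh libraries. The level was 48.7 ± 4.49 CPM in vitrified–warmed and 51.2 ± 2.21 CPM in fresh blastocysts (SD, n = 3 each), and the log2 fold change of -0.07 was about as large as its standard error, 0.07. Its neighbor and paralog Tex19.2, which was not among the genes chosen, fell to 9.88 ± 1.02 CPM in vitrified–warmed blastocysts, against 15.8 ± 0.329 CPM in fresh blastocysts (SD, n = 3 each; log2 fold change -0.67, standard error 0.12, adjusted p = 0.000161 from edgeR). Similar sequences of these paralogs could be split between them in counting.

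The 10 transcripts spanned a wide range of levels when compared per exon length, in the authors' FPKM. In vitrified–warmed blastocysts the order of mean FPKM was Sycp3 (33.6), Tex19.1 (15.6), Asz1 (6.29), Stk31 (4.22), Mael (2.19), Syce3 (2.02), Syce1 (1.96), Dazl (0.234), Ddx4 (0.120) and Hormad1 (0.0762). In this order the libraries of Mael, Syce3 and Syce1 overlapped each with the next, as did those of Ddx4 and Hormad1. In fresh blastocysts the order was Sycp3 (34.4), Tex19.1 (18.5), Mael (5.91), Stk31 (4.69), Asz1 (4.55), Hormad1 (1.21), Dazl (0.689), Ddx4 (0.308), Syce1 (0.307) and Syce3 (0). There Stk31 overlapped with Asz1 and Ddx4 with Syce1. Sycp3 stood above 93.1% of the genes tested in vitrified–warmed and above 92.3% in fresh blastocysts. Hormad1 stood above 8.38% of the genes tested in vitrified–warmed and above 36.5% in fresh blastocysts, and Syce1 above 47.5% in vitrified–warmed and 18.9% in fresh blastocysts.

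Abundance and the size of the difference can be read together. All genes tested were divided into 10 equal classes by mean CPM, numbered from the least abundant. The median size of the log2 fold change, whatever its sign, was 2.52 in class 1, which holds Syce3, 1.31 in class 2, which holds Hormad1 and Ddx4, and 0.94 in class 3, which holds Syce1 and Dazl. It was 0.46 in class 5 with Mael, 0.38 in class 6 with Asz1, 0.32 in class 7 with Stk31, 0.26 in class 8 with Tex19.1 and 0.21 in class 9 with Sycp3. Syce1, Hormad1, Dazl, Mael and Asz1 differed by more than the median size of their class, while Ddx4, Stk31, Tex19.1 and Sycp3 differed by less. For Syce3, the value against its fresh limit was 4.50, which comes from counts, while the class medians come from fitted values. The genes were chosen with these differences known, and Syce3, Syce1, Hormad1 and Ddx4 passed the filter only through the group where they were higher. Nothing is therefore read from this comparison. Low genes leaned upward in vitrified–warmed blastocysts, the median log2 fold change being 1.08 in class 1 and 0.30 in class 2.

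**Figure D4:**
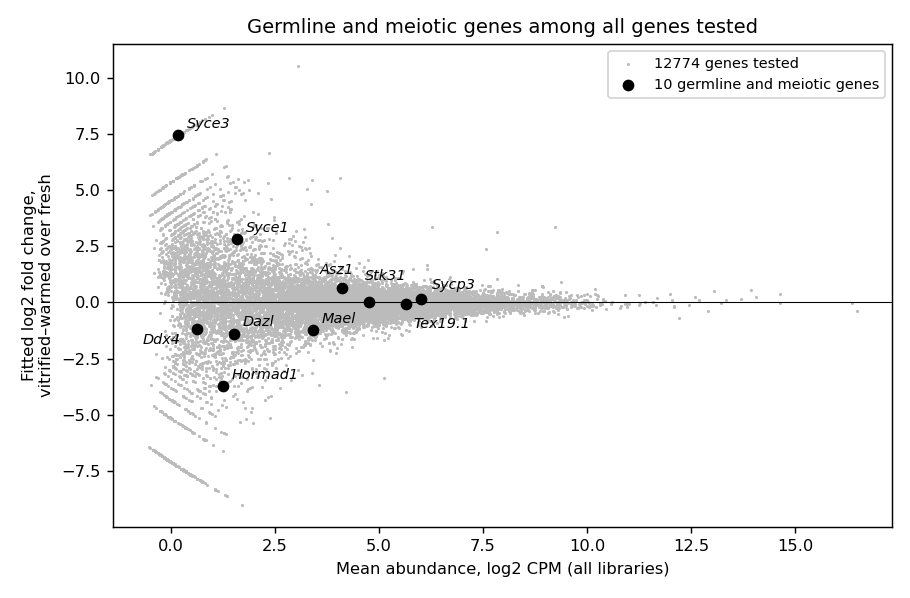
Fitted log2 fold change, vitrified–warmed over fresh (vertical axis), against mean abundance in log2 CPM (horizontal axis) for 12774 genes tested (grey) and the 10 germline and meiotic genes (black). The grey cloud widens toward low abundance, where Syce3, Syce1, Hormad1, Dazl and Ddx4 lie. The fitted value of Syce3 depends on the prior count, since its fresh libraries are at 0.

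Other genes of the same processes went both ways in vitrified–warmed blastocysts. Outside the 10, 5 lists of germline genes named 109 genes, of which 98 were in the table and 60 passed the filter on low counts. Of these 60, 19 were higher and 20 lower at an adjusted p under 0.05 in edgeR, with a median log2 fold change of -0.03, beside 31.6% and 32.8% called and a median of -0.00108 over all genes tested. The filter has a part in these calls. Of the 39 genes with enough fragments in both groups, 8 were higher, 12 lower and 19 not called. Of the 13 that passed only through the vitrified–warmed libraries 11 were called higher and none lower, and all 8 that passed only through the fresh libraries were called lower. Of the genes named below, Tex12, Hormad2 and Mnd1 passed only through the vitrified–warmed libraries and Rec114, D1Pas1, Tuba3a, Tex101 and Ring1 only through the fresh libraries. The filter thus favored a higher level of these genes in the group that passed, and their direction is read as a description. No fragment was seen in any library for Spata22, Nanos3, Zglp1 and Nobox, which serve meiotic recombination, germ cell survival and oocyte growth. The lists were chosen from general knowledge with earlier results of these data known.

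Among other parts of the synaptonemal complex and chromosome axis, 3 of 13 genes tested rose (23.1%, beside 31.6% of all genes) and 3 fell (23.1%, beside 32.8%), with a median log2 fold change of -0.02. All that rose passed the filter only through the vitrified–warmed libraries, and all that fell only through the fresh libraries. The filter thus favored each direction, and no gene of this list with enough fragments in both groups was called. Tex12, a further central element gene, was tested only through its vitrified–warmed libraries. It had 50, 17 and 34 fragments in the vitrified–warmed libraries, against 2, 0 and 0 in the fresh libraries, a ratio of 54.8 with a 95% Clopper-Pearson counting interval of 14.8 to 459 (adjusted p = 1.12e-05 from edgeR). Those 2 fragments came from fresh replicate 1, and the other fresh libraries were at 0. The central element gene Syce2 had 9.25 ± 0.858 CPM in vitrified–warmed and 11.4 ± 0.421 CPM in fresh blastocysts (SD, n = 3 each) and was not past the test (log2 fold change -0.29, adjusted p = 0.0602 from edgeR). However, Syce2 was called lower with limma on log2(FPKM + 0.5) and log2(FPKM + 0.1), without further scaling, at -0.43 (adjusted p = 0.00428) and -0.46 (adjusted p = 0.00643). Sycp1, for the transverse filament that the central element joins, had 13.2 ± 1.76 CPM in vitrified–warmed and 11.9 ± 1.03 CPM in fresh blastocysts (SD, n = 3 each, log2 fold change 0.16, adjusted p = 0.313 from edgeR).

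Hormad2, the paralog of Hormad1, had 7.09, 6.74 and 5.51 CPM in the vitrified–warmed libraries, against 1.56, 0.886 and 1.37 CPM in the fresh libraries. The groups did not overlap, and the log2 fold change was 2.33 (standard error 0.27, adjusted p = 2.16e-06 from edgeR). Hormad1 and Hormad2 passed the filter through different groups, so the filter favored differences in opposite directions. Rec114, part of the machinery that makes meiotic DNA breaks on the axis, fell to 0.414 ± 0.127 CPM in vitrified–warmed blastocysts, against 4.57 ± 1.22 CPM in fresh blastocysts (SD, n = 3 each; log2 fold change -3.42, adjusted p = 2.25e-06 from edgeR).

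For meiotic recombination and telomere attachment, 6 of 12 genes tested rose and 3 fell, beside 31.6% and 32.8% of all genes, with a median log2 fold change of 0.31. Mnd1, which forms a complex with Psmc3ip that assists strand exchange, had 38, 32 and 45 fragments in the vitrified–warmed libraries, against 1, 1 and 2 in the fresh libraries (log2 fold change 4.83, standard error 0.50, adjusted p = 8.33e-07 from edgeR). Psmc3ip itself rose by less, with a log2 fold change of 0.36 (adjusted p = 0.0123 from edgeR, lost without fresh replicate 1). Mlh3, an endonuclease subunit of crossover formation, had a log2 fold change of 0.56. Ccnb1ip1, a ligase that marks crossover sites, fell to 3.93 ± 1.40 CPM in vitrified–warmed blastocysts, against 12.2 ± 0.675 CPM in fresh blastocysts (SD, n = 3 each; log2 fold change -1.61, adjusted p = 3.68e-06 from edgeR).

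In the list of the piRNA pathway and nuage, to which Ddx4, Mael, Asz1 and Stk31 relate, 5 of 16 other genes tested rose (31.2%) and 6 fell (37.5%), near the 31.6% and 32.8% of all genes, with a median log2 fold change of -0.19. Some in each direction passed the filter only through the group where they were higher. Mybl1, the transcription factor that drives piRNA precursors in spermatocytes, rose to 14.7 ± 1.80 CPM in vitrified–warmed blastocysts, against 4.20 ± 0.269 CPM in fresh blastocysts (SD, n = 3 each; log2 fold change 1.80, adjusted p = 1.35e-07 from edgeR). Btbd18, which assists transcription of those precursors, had a log2 fold change of 1.01 (adjusted p = 0.000859 from edgeR). Mov10l1, a helicase of piRNA production, fell to 3.64 ± 1.29 CPM in vitrified–warmed blastocysts, against 10.7 ± 0.873 CPM in fresh blastocysts (SD, n = 3 each; log2 fold change -1.54, adjusted p = 8.67e-06 from edgeR). Gtsf1, a partner of PIWI proteins, had a log2 fold change of -1.15 (adjusted p = 0.00814 from edgeR, lost without fresh replicate 3).

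Among germ cell RNA regulators and genes of meiosis entry, 4 of 10 tested rose and 3 fell, beside 31.6% and 32.8% of all genes, with a median log2 fold change of 0.18. Prdm14, a transcription factor that sets up primordial germ cells and also acts in the epiblast, fell to 2.25 ± 0.509 CPM in vitrified–warmed blastocysts, against 6.02 ± 1.35 CPM in fresh blastocysts (SD, n = 3 each; log2 fold change -1.43, adjusted p = 0.000131 from edgeR). Sohlh2, a transcription factor of early gonadal germ cells, and Ythdc2, a helicase needed in meiosis, had log2 fold changes of -0.81 and -0.36. Taf4b, a gonadal subunit of the general transcription factor TFIID, had a log2 fold change of 0.34 (adjusted p = 0.000105 from edgeR). Under the alternatives its log2 fold change ran from 0.16 to 0.38, and its call was not kept in all of them.

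Of other genes that are silenced by promoter methylation outside the germline, 2 of 10 tested rose and 5 fell, beside 31.6% and 32.8% of all genes, with a median log2 fold change of -0.46, and 3 of the 5 that fell passed the filter only through the fresh libraries. D1Pas1, a retrogene for a testis helicase, fell to 5, 4 and 3 fragments in the vitrified–warmed libraries, against 56, 53 and 65 in the fresh libraries (log2 fold change -3.70, adjusted p = 3.56e-07 from edgeR). Tuba3a, a testis tubulin, fell to 2, 5 and 4 fragments in the vitrified–warmed libraries, against 76, 34 and 34 in the fresh libraries (log2 fold change -3.56, adjusted p = 1.92e-05 from edgeR), with fresh replicate 1 above the other fresh libraries. D1Pas1 and Tuba3a resemble other genes, so their fragments could be split in counting. Tex101, a surface protein of germ cells, had a log2 fold change of -2.93 (adjusted p = 7.07e-05 from edgeR). Of those called, Hormad2 and Cyct, a testis cytochrome c, were the 2 that rose, Cyct with a log2 fold change of 0.41.

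**Figure D5:**
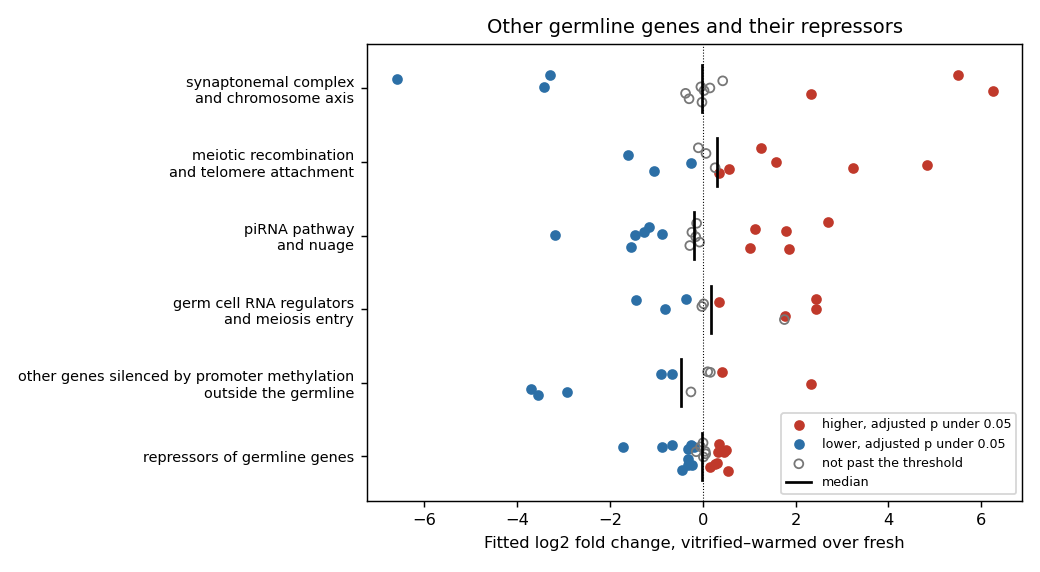
Fitted log2 fold change, vitrified–warmed over fresh (horizontal axis), of each tested gene in 5 lists of other germline genes and in the list of their repressors. Filled points are past an adjusted p of 0.05 in edgeR, red higher and blue lower, open points are not, and vertical strokes are list medians. Each list has points on either side of 0, and the list medians run from -0.46 to 0.31.

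Repressors of germline genes were present in both groups. All 24 listed had a mean above 0.5 FPKM and were tested. In vitrified–warmed blastocysts 8 were higher (33.3%, beside 31.6% of all genes) and 10 lower (41.7%, beside 32.8%), and the median log2 fold change was -0.02. Among the subunits of the variant Polycomb complex, Pcgf6 rose to 29.5 ± 2.21 CPM in vitrified–warmed blastocysts, against 20.3 ± 1.25 CPM in fresh blastocysts (SD, n = 3 each; log2 fold change 0.54, adjusted p = 0.000101 from edgeR). Mga, L3mbtl2, Rnf2, E2f6 and Cbx3 were also called higher, with log2 fold changes of 0.49, 0.46, 0.33, 0.30 and 0.16. Max, Tfdp1 and Hdac1 were among those called lower, with log2 fold changes of -0.18, -0.33 and -0.31. Ring1, a ubiquitin ligase of Polycomb complexes, had 9, 18 and 3 fragments in the vitrified–warmed libraries, against 33, 35 and 42 in the fresh libraries (log2 fold change -1.71, adjusted p = 0.00534 from edgeR). It was spread among the vitrified–warmed libraries, and without vitrified–warmed replicate 2 its log2 fold change was -2.54. The mean of Ring1 over all libraries was 0.641 FPKM, against 17.9 FPKM for Rnf2. Yaf2, a further subunit, had a log2 fold change of -0.65 (adjusted p = 0.00189 from edgeR). Kdm5c, a histone H3K4 demethylase, fell to 42.6 ± 2.64 CPM in vitrified–warmed blastocysts, against 78.6 ± 1.89 CPM in fresh blastocysts (SD, n = 3 each; log2 fold change -0.88, adjusted p = 1.86e-08 from edgeR).

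Markers of other cells were measured in the same libraries. Of 14 genes of sperm and spermatids, 1 passed the filter, Odf2, which other cells use at the centrosome, and Prm2, Tnp1 and Tnp2, which pack sperm DNA, were at 0 in every library. Others had some fragments, several of them mainly in fresh replicate 1. In the fresh libraries, Akap4 and Tssk1 each had 17, 0 and 0 fragments, Acr had 9, 2 and 3, and Tssk2 had 8, 1 and 1. Prm1 had 1, 1 and 2 fragments in the vitrified–warmed libraries and none in the fresh libraries. Oocyte markers were present at low levels: 9 of 12 were tested, with 2 higher in vitrified–warmed blastocysts and 4 lower, beside 31.6% and 32.8% of all genes. Oosp2 was at 0 in every library, and the list summed to 13.2 to 19.8 CPM in the vitrified–warmed and 21.8 to 22.8 CPM in the fresh libraries. Group means of single oocyte markers ran from 0 (H1foo in the vitrified–warmed libraries) to 6.27 CPM (Zp2 in the vitrified–warmed libraries). Those of Syce3, Syce1, Hormad1, Dazl and Ddx4 were also below 6.27 CPM in either group. Since the range starts at 0, any gene below its upper end lies within it, and nothing is read from this.

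Genes that mark the 2-cell embryo, 11 in the table, summed to 32.2 to 38.1 CPM in the vitrified–warmed and 7.54 to 17.2 CPM in the fresh libraries. Of 7 tested, 4 were higher and 1 lower, beside 31.6% and 32.8% of all genes. The 4 passed the filter only through the vitrified–warmed libraries and the 1 only through the fresh libraries. The filter thus favored each of these directions. Zscan4f, of a family with similar sequences, had the largest share in the vitrified–warmed libraries, at 18.9 CPM on average, against 0.564 CPM in fresh blastocysts. The highest fresh sum came from Usp17lb, which had 85 fragments in fresh replicate 1 against 10 and 5 in the other fresh libraries. Tdpoz1 went the other way (log2 fold change -2.46, adjusted p = 4.14e-05 from edgeR), and Tdpoz3 had no fragment in the vitrified–warmed libraries, against 12, 9 and 8 in the fresh libraries.

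Of 10 blood and immune markers 5 were tested, with 4 higher in vitrified–warmed blastocysts and 1 lower, beside 31.6% and 32.8% of all genes. Hba-a1 and Cd68 passed the filter only through the vitrified–warmed libraries. The list summed to 25.8 to 30.1 CPM in the vitrified–warmed and 15.3 to 17.1 CPM in the fresh libraries. The globin gene Hba-a1 had 49, 61 and 68 fragments in the vitrified–warmed libraries, against 5, 10 and 7 in the fresh libraries, while its near-identical copy Hba-a2 was at 0 in all. The macrophage gene Cd68 (log2 fold change 2.26), Hbb-bs (1.38) and Cd74 (0.61) were higher and Fcgr3 (-0.99) lower, and Ptprc, which marks white blood cells, had 0 to 3 fragments in any library. Of 12 cumulus and granulosa markers 2 were tested, with none higher and 1 lower, and the list summed to 3.73 to 5.65 CPM in the vitrified–warmed and 1.86 to 8.83 CPM in the fresh libraries. The part of these markers in the levels of the 10 genes was not tested.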

How the data were processed

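RNA-Seq libraries from 3 aliquots of 1 pool of vitrified–warmed blastocysts and 3 aliquots of 1 pool of fresh blastocysts were analysed, grouped by their titles. In CLC Genomics Workbench, reads were trimmed and mapped to GRCm38, and the authors deposited exon fragment counts per gene, whole and not normalized. The authors also deposited FPKM per gene (fragments scaled to exon length and a library total), used here to compare levels between genes. Their deposited mean FPKM, unadjusted p-value and log2 fold change columns were not used. Of 28887 entries, 8 name no gene.

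Counts were filtered with filterByExpr, normalized with TMM and tested with edgeR 4.0.16 (robust quasi-likelihood) in R 4.3.3, with Benjamini–Hochberg adjustment over 12774 genes. Standard errors are the log2 fold change divided by the root of its F statistic. The test was checked on simulated data. Genes named are the 10, up to 4 per list past the test with the largest change and a mean above 0.5 FPKM, and Sycp1, Syce2, Tex12, Hormad2 and Tex19.2. Cyct, Spata22, Nanos3, Zglp1, Nobox, Mga, L3mbtl2, Rnf2, E2f6, Cbx3, Max, Tfdp1 and Hdac1, and the markers, were named after their values were seen. The 10 genes and the lists were chosen with earlier results of these data known. Listed symbols were matched by name or by RefSeq gene ID (GRCm38.p6). Alternatives were DESeq2 1.42.0, other scalings and filters, limma 3.58.1 on log2(FPKM + 0.5) or log2(FPKM + 0.1), a replicate block, the study's thresholds and each library left out.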

Additional observations from a re-analysis of the deposited data

How the results depend on the processing

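Of 137 values of the 10 genes under the alternatives, 117 kept their direction and their side of the threshold, 13 lost the call (Sycp3 and Ddx4), 1 gained it (Tex19.1 with limma on log2(FPKM + 0.5), -0.24) and 6 turned round (Sycp3 and Stk31). For other genes named, leaving out those named after their values were seen, 331 of 340 values kept both. The call was lost for 5 values (Psmc3ip, Gtsf1 and Taf4b), and Syce2 gained a call with limma (-0.43 and -0.46). With limma on log2(FPKM + 0.5) and log2(FPKM + 0.1), the deposited FPKM was not scaled beyond its own library total. The median of all genes was -0.13 and -0.16, and 2572 and 2689 genes were higher and 5468 and 5347 lower, against 4034 and 4188. There the log2 fold change was -0.034 and -0.034 for Sycp3, -0.14 and -0.16 for Stk31 and -0.020 and -0.025 for Sycp1. Stk31 had -0.024 without vitrified–warmed replicate 3 and -0.023 without fresh replicate 2, in a range of -0.024 to 0.11 over libraries left out. At the study's thresholds 1172 genes were higher (9.17% of genes tested) and 1477 lower (11.6%), with 3 higher and 2 lower of the 10 genes. Of the 60 other germline genes tested, 5 were higher and 11 lower at these thresholds (19 and 20 at an adjusted p under 0.05). With genes above 1 FPKM only, which leaves out Hormad1, Dazl and Ddx4, 2742 of 8394 genes tested were higher and 2789 lower. There 4 of the 10 were higher and 1 lower, and 6 of the others were higher and 8 lower. Leaving out 1 library gave 3741 to 4403 higher and 3845 to 4343 lower genes, of 13233 to 13417 tested. Of the 10, 3 to 4 were higher and 3 to 4 lower, and of the others 19 to 21 were higher and 16 to 20 lower. Replicate numbers did not pair the libraries (correlations of deviations between same-numbered libraries were -0.046 to -0.0061 over 8782 genes, and no library correlated best with its own number), and a replicate block gave 3890 higher and 4073 lower genes, with 3 higher and 3 lower of the 10 and 19 higher and 18 lower of the others. Low counts limit Syce3, Hormad1, Dazl and Ddx4. DESeq2 and the fits with a replicate block or no filter on low counts lost the calls of Sycp3 and Ddx4. The causes were not tested.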

Other observations

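Oocyte markers, like the 10 germline and meiotic genes, went both ways between the pools. H1foo, the linker histone of the oocyte, had no fragment in the vitrified–warmed libraries, against 62 over the 3 fresh libraries. With the group at 0 set to a limit of 3 counts, its log2 fold change was -4.25, without the error of the fresh mean. Obox5, an oocyte homeobox gene of a family with similar sequences, had 36 fragments over the vitrified–warmed libraries and none in the fresh libraries. Its vitrified–warmed mean was 13.0-fold above the limit for the fresh libraries. Zp1, for a zona pellucida protein, had a log2 fold change of -3.10 (adjusted p = 1.88e-05 from edgeR) and Zp2, for another, 0.83 (adjusted p = 0.0104 from edgeR). Gdf9, a growth factor of the oocyte, had -1.71 (adjusted p = 6.52e-05 from edgeR). H1foo and Zp1 were tested thanks to the fresh libraries alone and Obox5 thanks to the vitrified–warmed libraries alone, so the filter favored a higher level in that group. These genes were named after their values were seen.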
